A study of Mus musculus with 3 samples.

Results

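The 86 mouse nuclei described here fall in cluster 1 of the deposited clustering. The deposited annotation gives them as neurons of the lateral habenula with the subtype label LHb2. They were taken as the nuclei annotated as neurons, with cluster number 1 and label LHb2 in the subtype scheme that uses the names LHb1, LHb2 and LHb4. They make up 86 of the 157 neurons of cluster 1, of 592 neurons and of 603 nuclei in all. The other 71 neurons of cluster 1 carry the label LHb4.

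The study measured polyadenylated RNA in single nuclei sorted for the nuclear envelope reporter KASH-GFP, which the labels describe as BNST LHb neurons. The lateral habenula was dissected from 3 mothers (females with sexual experience), 3 virgin females and 3 virgin males. Nuclei of the 3 mice of a group went into 1 library, so a group is 1 sample, and mice within a group cannot be told apart. The sources used here give no strain, age or time since birth in the mothers, and no route of delivery of the reporter. All groups share the reporter and the sort, and no group without them was analysed here.

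The lateral habenula is a paired epithalamic nucleus that receives input from the basal ganglia, hypothalamus and extended amygdala and projects to midbrain regions that control dopamine and serotonin neurons. Its neurons are mostly glutamatergic, use the vesicular transporter VGLUT2 (Slc17a6), and fire tonically or in bursts. Habenular neurons are commonly recognised by the transcription factor Pou4f1 (Brn3a), the orphan receptor Gpr151 and the growth-associated protein Gap43. Neighbouring thalamic neurons use Slc17a6 as well, but lack Pou4f1 and are high in factors such as Lef1.

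Mothers gave 21 of the nuclei, virgin females 40 and virgin males 25. Of the neurons of cluster 1 they made up 61.5% in virgin females (95% Clopper-Pearson interval 48.6 to 73.3), 53.8% in mothers (37.2 to 69.9) and 47.2% in virgin males (33.3 to 61.4). The 3 intervals overlap. Of all neurons of a library, the shares were 21.4% in virgin females (15.7 to 28.0), 12.2% in virgin males (8.09 to 17.6) and 10.4% in mothers (6.59 to 15.5). The virgin females had the highest share by either denominator, and with 1 library per group the spread between mice is unknown. All intervals in this report cover counting error only. The labels and the clusters were made from the same transcripts that are described below, so no test is given, and differences between libraries are described by their size.

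The nuclei held 1074079 unique molecular identifiers (UMIs, each standing for 1 captured transcript), of which mothers gave 277585, virgin females 549993 and virgin males 246501. The median was 10880.5 UMIs per nucleus (range 846 to 36574), and by library it was highest for mothers at 13626, then 11335.5 for virgin females, and lowest for virgin males at 8592. The LHb4-labelled nuclei were shallower, with a median of 8006 UMIs. Levels below are UMIs per 1000000 UMIs of the same nuclei in the same library (CPM), given in the order mothers, virgin females, virgin males. A gene with no UMI in a library is below the level of 3 UMIs there, which is 10.8, 5.45 and 12.2 CPM for these nuclei. The libraries held 196 to 205 nuclei each, no barcode occurred in more than 1 library, and Xist, the RNA of the inactive X chromosome, was found in all 61 nuclei from the female libraries and in none of the 25 from males.

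Cluster 1 is marked by 4 genes. Prkcq (protein kinase C theta, ENSMUSG00000026778.13, GRCm38 chr2:11172108-11301222, + strand) is a signalling kinase. Sox6 (ENSMUSG00000051910.13, chr7:115470872-116038796, - strand) is a transcription factor of the SoxD group. Man1a (ENSMUSG00000003746.16, chr10:53904785-54076609, - strand) encodes a Golgi mannosidase that trims N-glycans. Nwd2 (ENSMUSG00000090061.9, chr5:63649102-63810546, + strand) encodes a protein with NACHT and WD repeat domains. All 4 are protein-coding genes, and levels are not compared between genes, since UMIs were not scaled by gene length.

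RefSeq windows of 300 bases (250 before to 50 after a transcript start, GRCm38.p6) are shown for Prkcq and Sox6, the markers found in the fewest nuclei outside the cluster, and for Etv1, an ETS factor that went with them. Searched on both strands, the letters AACAAT, or ATTGTT on the other strand, which SOX factors can bind, are in capitals. The Sox6 window holds them on both strands, the Etv1 window on 1 and the Prkcq window on neither.
Prkcq, chr2:11172132-11172431, + strand: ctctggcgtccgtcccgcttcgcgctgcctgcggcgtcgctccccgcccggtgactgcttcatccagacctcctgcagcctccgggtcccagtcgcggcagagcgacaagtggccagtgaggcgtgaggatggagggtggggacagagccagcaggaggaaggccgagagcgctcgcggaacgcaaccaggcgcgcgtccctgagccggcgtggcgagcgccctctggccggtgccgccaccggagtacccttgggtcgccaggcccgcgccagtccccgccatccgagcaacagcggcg
Sox6, chr7:115824661-115824960, - strand: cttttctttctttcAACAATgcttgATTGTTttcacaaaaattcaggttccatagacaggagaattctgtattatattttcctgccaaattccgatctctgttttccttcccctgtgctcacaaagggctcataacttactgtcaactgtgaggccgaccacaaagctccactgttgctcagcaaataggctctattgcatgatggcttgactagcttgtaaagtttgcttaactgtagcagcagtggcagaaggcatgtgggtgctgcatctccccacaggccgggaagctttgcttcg
Etv1, chr12:38783461-38783760, + strand: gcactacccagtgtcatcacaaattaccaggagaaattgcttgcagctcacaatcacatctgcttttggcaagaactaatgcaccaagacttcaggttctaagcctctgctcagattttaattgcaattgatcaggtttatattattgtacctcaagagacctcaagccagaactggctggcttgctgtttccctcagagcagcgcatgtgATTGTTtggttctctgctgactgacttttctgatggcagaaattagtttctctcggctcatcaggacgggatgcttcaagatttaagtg
Of all 32851 windows, 3521 (10.7%) hold these letters. Among the 9 windows of the 4 markers, 1 of the 6 of Sox6 was the only one. Etv1 has 2 windows, and for Sox6 and Etv1 a window was shown because it held the letters. Of the 20 genes that rose most in nuclei with many of these markers, 17 had windows. Of their 25 windows, 2 held the letters, those of Sox6 and Etv1, so a match was no more common there than among all windows. A match describes the letters and is not a binding site.

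Prkcq was at 169 CPM in mothers (exact Poisson 95% interval 124 to 225), against 278 in virgin females (236 to 326) and 316 in males (250 to 395). A UMI was found in 47 of 86 nuclei (54.7%; 47.4% after thinning each nucleus to 5000 UMIs). The library of mothers was lowest, and its interval did not reach that of the others. In clusters 0, 2, 3 and 4 its mean was 0.914, 4.67, 0.583 and 17.5 CPM.

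Sox6 was at 198 (149 to 258), 302 (258 to 351) and 349 CPM (279 to 431), with a UMI in 37 nuclei (43.0%; 44.9% thinned). Its mean was 5.46, 0.535, 4.11 and 11.9 CPM in clusters 0, 2, 3 and 4. Man1a was at 238 (184 to 303), 294 (251 to 344) and 329 CPM (261 to 408), with a UMI in 55 nuclei (64.0%; 51.3% thinned). Both genes had the order of libraries seen for Prkcq, with mothers lowest and virgin males highest, though the intervals of Man1a overlapped. The order did not hold for both in the nuclei with a UMI of 3 or 4 of the markers, a selection made by these genes. There Sox6 was at 545, 536 and 595 CPM and Man1a at 535, 450 and 455, while Prkcq was at 327, 471 and 476. The mean of Man1a in clusters 0, 2, 3 and 4 was 16.3, 1.72, 3.89 and 17.0 CPM. The clustering used these genes, so their level in the cluster is a description.

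Nwd2 stood apart. It was at 97.3 (64.1 to 142), 184 (150 to 223) and 219 CPM (165 to 286), while the LHb4-labelled nuclei of the same cluster had 1154 (997 to 1329), 651 (562 to 749) and 516 CPM (425 to 621). The mean log2 ratio was -2.20 ± 1.20 (SD, n = 3 libraries), and no library overlapped between the labels. The other markers had smaller mean log2 ratios, at -0.13 ± 0.42 for Prkcq, 0.59 ± 0.47 for Sox6 and -0.40 ± 0.30 for Man1a. Single libraries could still lie apart. In mothers Sox6 was at 198 (149.3 to 257.9) against 90.2 CPM (50.5 to 148.7) in LHb4-labelled nuclei. In virgin females Man1a was at 294 (251 to 344) against 490 CPM (413 to 576). Summed over the 4 genes, the LHb2-labelled nuclei had 702, 1058 and 1213 CPM and the LHb4-labelled nuclei 1743, 1573 and 1609.

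Single nuclei differed widely in these markers. Of the 86 nuclei, 16 had a UMI of none of the 4, 18 of 1, 15 of 2, 11 of 3 and 26 of all 4. By library, 10 of 21 (47.6%), 15 of 40 (37.5%) and 9 of 25 nuclei (36.0%) had 0 or 1, and 7 (33.3%), 17 (42.5%) and 13 (52.0%) had 3 or 4. In cluster 0, 131 of 172 nuclei had none and no nucleus had 3 or 4, and in cluster 4 only 2 of 75 had 3 or 4. So 34 of the 86 nuclei (39.5%) had 0 or 1 of these markers, as had most nuclei of the other clusters. The LHb4-labelled nuclei of cluster 1 had the same share, 28 of 71 (39.4%), and 22 (31.0%) had 3 or 4, so the spread was not particular to the label LHb2. The median depth was 7153 UMIs with 0 markers, 12064 with 1, 11389 with 2, 8695 with 3 and 13920.5 with 4, lowest with none and highest with all 4 but with no steady order between. Over the groups compared below it was 8278 UMIs with 0 or 1 marker and 12148 with 3 or 4. Of those nuclei, 26 of 34 and 37 of 37 had at least 5000 UMIs. In the LHb4-labelled nuclei the medians were 4412 and 16906.5 UMIs, and 13 of 28 and 20 of 22 nuclei had at least 5000. The part of depth in the split was not tested.

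**Figure D1:**
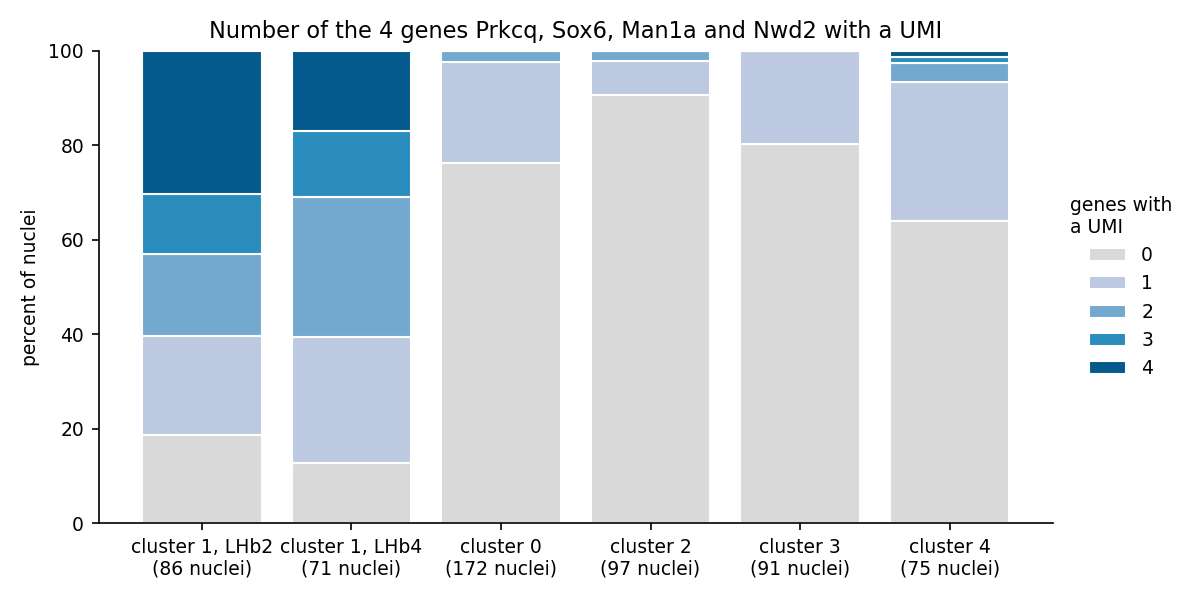
Percent of nuclei (y axis) with a UMI of 0 to 4 of the genes Prkcq, Sox6, Man1a and Nwd2, for the LHb2-labelled and LHb4-labelled nuclei of cluster 1 and for clusters 0, 2, 3 and 4 (x axis). All 4 genes were found in 26 of the 86 LHb2-labelled nuclei, and 16 had none.

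Among the 4 marker genes the count per nucleus gives a range and not a type, and 15 nuclei with 2 markers lie between the 34 with 0 or 1 and the 37 with 3 or 4. The split and the genes below were chosen after the values had been seen, so they are a description. Of 4274 genes with at least 50 UMIs in the 71 nuclei, 69 (1.61%) were at least 2-fold higher in the nuclei with 0 or 1 marker in each of the 3 libraries and 61 (1.43%) in those with 3 or 4, the markers themselves included.

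The nuclei with 3 or 4 markers had more of several transcription factor genes. Nr4a2 (Nurr1), a nuclear receptor also counted among activity-induced genes, was found in 27 of 37 nuclei against 5 of 34, at 99.0, 110 and 175 CPM against 0, 36.1 and 44.4. Etv1, the ETS factor shown above, was found in 26 against 6 nuclei, and Casz1, a zinc finger factor, in 27 against 3. Pou4f1, which habenular neurons need for their development, was found in 7 nuclei, all with 3 or 4 markers. The 3 libraries agreed in direction for Nr4a2, Etv1 and Casz1, while Pou4f1 rested on 9 UMIs.

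Kcns3, a potassium channel subunit that modifies Kv2 channels, was found in 22 of 37 nuclei against 2 of 34, at 168, 144 and 105 CPM against 25.2, 6.02 and 0. Tll1, an extracellular protease of the BMP1 family, had 356, 302 and 308 CPM against 25.2, 12.04 and 0. Col25a1, a transmembrane collagen of neurons, had 921, 921 and 1043 against 92.3, 181 and 118. The groups did not overlap in any library for these 3 genes. Syt2, a fast calcium sensor of transmitter release, was at 396, 316 and 280 CPM against 101, 72.2 and 148, which is under 2-fold in virgin males. Slc17a6 was found in 34 of 37 nuclei against 22 of 34, but its level was under 2-fold apart in each library, at 347, 323 and 315 CPM against 243, 247 and 163.

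The nuclei with 0 or 1 marker had more of other adhesion and transcription factor genes. Alcam, a cell adhesion molecule of the immunoglobulin family, was found in 18 of 34 nuclei, with 277, 150 and 266 CPM, and in 0 of 37 nuclei with 3 or 4 markers, which makes it at least 38.4-fold higher by a floor of 3 UMIs over that group. Tox, a factor of the HMG-box group, was found in 15 nuclei against 1. Sox5, the SoxD relative of Sox6, was found in 17 against 5, and Foxp2 in 12 against 2.

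Kirrel3, an adhesion molecule involved in synapse formation, had 2433, 1908 and 946 CPM with 0 or 1 marker against 49.5, 296 and 63.0 with 3 or 4. Plcb1, a phospholipase C downstream of Gq-coupled receptors, had 344, 331 and 784 CPM against 29.7, 51.6 and 63.0. Trpm3, a calcium-permeable cation channel, had 830, 849 and 1242 against 89.1, 134 and 133. Htr2c, the Gq-coupled serotonin 2C receptor, had 361, 572 and 695 against 49.5, 138 and 140. For all 4 genes every library with 0 or 1 marker was above every library with 3 or 4.

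Some of these genes are also high in other clusters. Alcam had a mean of 275, 89.0, 11.9 and 135 CPM in clusters 0, 2, 3 and 4, and Kirrel3 had 995, 1860, 612 and 647. Foxp2 was found in 92.4% of cluster 0 nuclei and 8.0% of cluster 4 nuclei. Trpm3 and Htr2c had their highest mean inside cluster 1, in the LHb4-labelled nuclei, at 2397 and 1372 CPM. In clusters 0, 2, 3 and 4 Trpm3 was at 292, 62.5, 93.7 and 1158 CPM and Htr2c at 393, 471, 303 and 215. The LHb4-labelled nuclei showed part of the same split, summed over libraries. With 3 or 4 markers against 0 or 1, they had Etv1 at 130 against 54.7 CPM and Kcns3 at 54.85 against 13.7. Col25a1 was there at 1472 against 280 CPM, Trpm3 at 468 against 3255 and Htr2c at 462 against 1860. Alcam was at 14.4 against 157 CPM, Sox5 at 20.2 against 103 and Kirrel3 at 89.5 against 239. Tox was at 2.89 against 61.5 CPM (1 against 9 UMIs) and Plcb1 at 8.66 against 116 (3 against 17 UMIs). These 5 genes were thus not particular to the label LHb2. Nr4a2 was level (98.2 against 95.7 CPM). Foxp2 was in more nuclei with many markers (5 of 22 against 1 of 28) but at a lower level (34.6 against 54.7 CPM). The nuclei with many markers were deeper, with a median of 16906.5 against 4412 UMIs. Which nuclei the LHb2-labelled nuclei with few markers were nearest to was not tested. By list, 4 of 17 measured transcription factors were higher with 0 or 1 marker (Foxp2, Prox1, Sox5 and Tox) and 3 with 3 or 4 (Etv1, Nr4a2 and Sox6, the last being one of the markers that made the split). Of 28 potassium channel genes, 3 were higher with few markers (Kcnab1, Kcnq5 and Kcnt2) and 4 with many, among them Kcna2, Kcnh8 and Kcnj6, and none of 20 glutamate receptor genes passed in either direction.

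**Figure D2:**
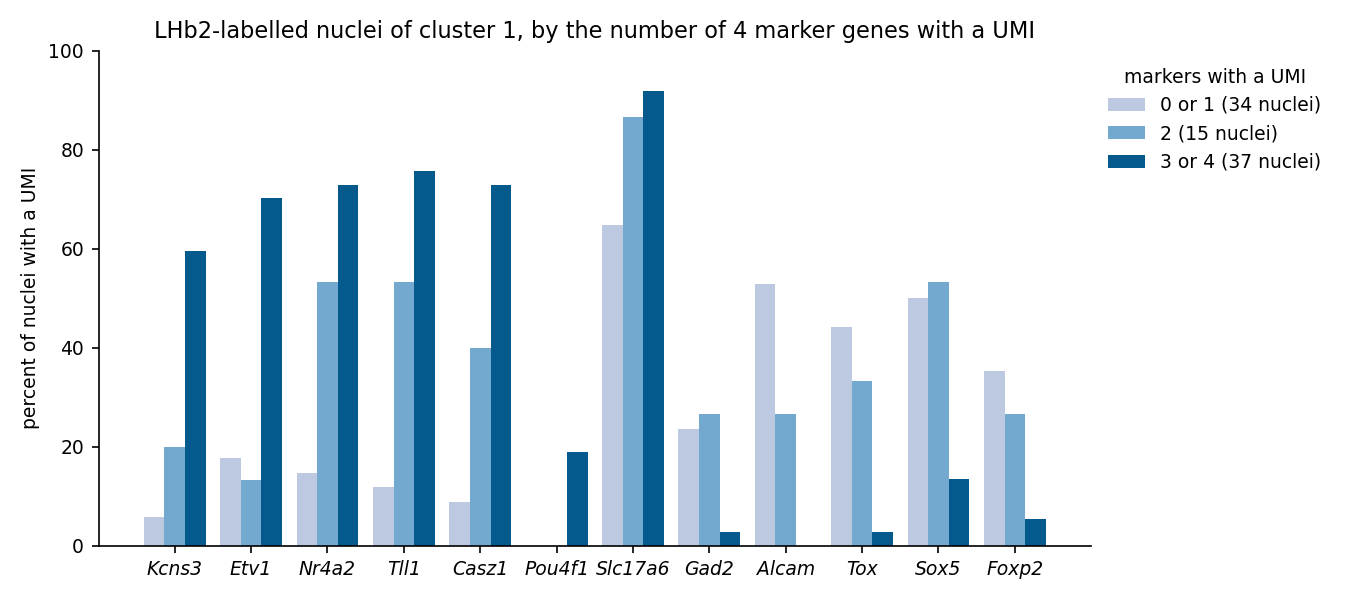
Percent of LHb2-labelled nuclei with a UMI (y axis) for 12 genes (x axis), with bars for nuclei holding 0 or 1 (34 nuclei), 2 (15 nuclei) and 3 or 4 (37 nuclei) of the cluster 1 markers. Alcam was found in 18 of 34 nuclei with few markers and in 0 of 37 with many, and Kcns3 in 2 and 22.

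Markers of habenular neurons were present but uneven. Gap43 was at 205, 198 and 211 CPM, with a UMI in 68 of 86 nuclei (79.1%), and Pcdh10, a protocadherin, at 216, 269 and 353 CPM. Pou4f1 was found in 7 nuclei (8.14%; 2.56% thinned) with 9 UMIs, against 24 of 71 LHb4-labelled nuclei (33.8%; 16.3% thinned). No Pou4f1 UMI was found in clusters 0, 2 and 3, so these UMIs lie above that background. Gpr151 was found in 5 nuclei, against 20 of 172 in cluster 0.

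The 6 lateral habenula markers summed to 1142, 1349 and 1550 CPM, against 2026, 2451 and 3770 in LHb4-labelled nuclei, 1641 to 1906 in cluster 4, 924 to 1292 in cluster 2, 825 to 1487 in cluster 3 and 821 to 978 in cluster 0. By this sum the LHb2-labelled nuclei were below LHb4 and cluster 4, above cluster 0 and within reach of clusters 2 and 3. Much of the gap to LHb4 lay in Htr2c, 1 of the 6. Htr2c was at 524 against 1860 CPM with 0 or 1 cluster marker and at 122 against 462 with 3 or 4. Pcdh10 and Pou4f1 were also higher in LHb4. Gap43 went the other way, at 201 against 88.9 CPM with 0 or 1 cluster marker and 217 against 141.5 with 3 or 4. The 6 thalamic markers summed to 2907, 2135 and 2041 CPM, against 6786 to 7418 in cluster 0, 7853 to 8544 in cluster 2, 10357.9 to 10994.0 in cluster 3, 1310 to 1943 in LHb4-labelled nuclei and 1000 to 1812 in cluster 4. Of 9 medial habenula markers, Tac2, Chrna3, Chrnb3, Chrnb4 and Slc18a3 had no UMI, and the sum was 46.8, 0 and 12.2 CPM. All 6 lateral habenula markers had a UMI, as in the LHb4-labelled nuclei and cluster 4. Thalamic markers were higher than in those populations and lower than in clusters 0, 2 and 3. No LHb2-labelled nucleus had more than 0.106% of its UMIs in the markers of 1 non-neuronal class.

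Transmitter genes showed a glutamatergic majority. Slc17a6 was at 267, 296 and 260 CPM, with a UMI in 69 nuclei (80.2%). A UMI of Gad1, Gad2 or Slc32a1, the enzymes and vesicular transporter of GABA, was found in 13 of 86 nuclei (15.1%, interval 8.3 to 24.5), of which 5 also had Slc17a6 and 8 did not. By library they numbered 5, 6 and 2. Of the LHb4-labelled nuclei 4 of 71 had one (5.63%, interval 1.56 to 13.8, which overlaps), and of cluster 0 6 of 172 (3.49%, 1.29 to 7.44). Clusters 2 and 3, with median depths of 12639 and 15007 UMIs, had no such nucleus, and cluster 4 had 23 of 75 (30.7%, 20.5 to 42.4). The share thus lay above that of clusters 0, 2 and 3 and could not be told from that of the LHb4-labelled nuclei. Slc32a1 was found in 8 LHb2-labelled nuclei and in no LHb4-labelled nucleus, and in no nucleus of clusters 0, 2, 3 and 4, while those of cluster 4 had Gad2 without Gad1. Of the 13 nuclei, 8 had 0 or 1 of the cluster 1 markers, 4 had 2 and 1 had 3. The GABAergic markers Dlx1 and Dlx6os1 had no UMI.

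Against the LHb4-labelled nuclei of the same cluster, the LHb2-labelled nuclei had more of a GABA receptor, a glycine receptor and several adhesion genes and less of a serotonin receptor and 2 cation or potassium channels. Of 6264 genes with at least 50 UMIs, 53 (0.846%) were at least 2-fold higher in each library and 22 (0.351%) at least 2-fold lower, and the median log2 ratio of all genes was -0.01. Ratios were taken within each library after adding 0.5 UMI, and the labels were assigned from these transcripts. In 5 male LHb4-labelled nuclei, choroid or ependymal markers took over 1% of UMIs, with 723 UMIs of Ttr in 7 LHb4-labelled nuclei against 2 here. Without those 5 nuclei, 45 of the 53 and 19 of the 22 genes still passed. With 2 libraries in place of 3 the rule is easier to meet: 80 higher and 39 lower genes passed without virgin males, and 38 lower genes without virgin females.

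Gabrb1, the beta 1 subunit of GABA-A receptors (chr5:71658113-72149037), was at 731, 496 and 381 CPM against 108, 107 and 130 in LHb4-labelled nuclei. The labels did not overlap, with a mean log2 ratio of 2.15 ± 0.60 (SD, n = 3). Glra3, the alpha 3 subunit of the glycine receptor (chr8:55940460-56130070), was at 43.2, 104 and 93.3 against 12.02, 20.1 and 18.6 CPM, or 2.01 ± 0.37. Both are subunits of inhibitory chloride channels. Of 14 measured GABA and glycine receptor genes, 3 were higher (Gabra4, Gabrb1 and Glra3) and none lower, with a median log2 ratio of 0.42. For Gabra4, 34.5% of the UMIs came from 1 nucleus.

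Ankfn1 was found in 22 LHb2-labelled nuclei, at 97.3, 61.8 and 20.3 CPM, and in no LHb4-labelled nucleus, and was at least 13.9-fold higher by a floor of 3 UMIs. Ptprt, a receptor tyrosine phosphatase with adhesion domains (chr2:161521990-162661147), was at 209, 236 and 280 against 0, 40.2 and 27.9 CPM, in 50 nuclei against 8. Kirrel3 was at 1585, 884 and 324 against 156, 104 and 97.6 CPM, in 54 nuclei against 21. Megf11, a receptor with EGF repeats, was at 285, 200 and 52.7 against 72.1, 30.2 and 13.9 CPM, and Ptprk, another receptor phosphatase, at 119, 80.0 and 223 against 0, 23.5 and 37.2.

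Genes of channels and signalling made up others of the 15 named. Kcnab1, a beta subunit of Kv1 channels, was at 90.1, 50.9 and 89.3 against 18.0, 10.1 and 18.6 CPM, with a mean log2 ratio of 2.13 ± 0.01. March1, a membrane-bound ubiquitin ligase, was at 576, 535 and 475 against 150, 188 and 172 CPM (1.62 ± 0.26). Adcy2, an adenylyl cyclase, was at 209, 140 and 110 against 30.1, 50.3 and 37.2 CPM (1.87 ± 0.70). Syndig1, which regulates AMPA receptor synapses, was found in 38 nuclei against 3, the RNA gene Lncenc1 in 23 against 4, Rerg in 22 against 5 and AI593442 in 24 against 7.

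Htr2c (chrX:146962513-147197277) was lower in the LHb2-labelled nuclei, at 184, 344 and 320 against 800, 1328 and 1990 CPM, with a mean log2 ratio of -2.23 ± 0.35. It was found in a similar share of nuclei, 51.2% against 56.3% (46.1% and 46.9% thinned). Of 6 measured serotonin receptor genes it alone passed, and the median of the list was 0.41. Trpm3 (chr19:22139046-22995410) was at 404, 400 and 462 against 2891, 1100 and 3198 CPM, or -2.36 ± 0.78. Kcnd3, the Kv4.3 channel of A-type potassium current, was at 162, 166 and 154 against 565, 402 and 391 CPM, or -1.47 ± 0.28. Levels in the LHb2-labelled nuclei differed little between libraries for Trpm3 and Kcnd3, and the LHb4-labelled nuclei carried the larger spread.

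Ebf1, a transcription factor of early B-cell factor type, was at 123, 204 and 195 against 523, 449 and 493 CPM (-1.52 ± 0.50), and the RNA-binding protein Msi2 at 548, 638 and 617 against 2140, 1771 and 1795 (-1.66 ± 0.27). Msi2 was nearly as common in the 2 labels, with a UMI in 93.0% and 95.8% of nuclei. Scube1 (-1.70 ± 0.26), Plcxd2 (-1.63 ± 0.35), Cacnb3, a calcium channel beta subunit (-1.34 ± 0.13), and Mme, the peptidase neprilysin (-1.45 ± 0.29), were lower with little spread. Ptprq, Sytl2, Ccdc141, Nxn and Ccdc171 were lower as well, with mean log2 ratios from -2.74 for Ptprq to -1.46 for Ccdc171. Nwd2 completes the 15.

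**Figure D3:**
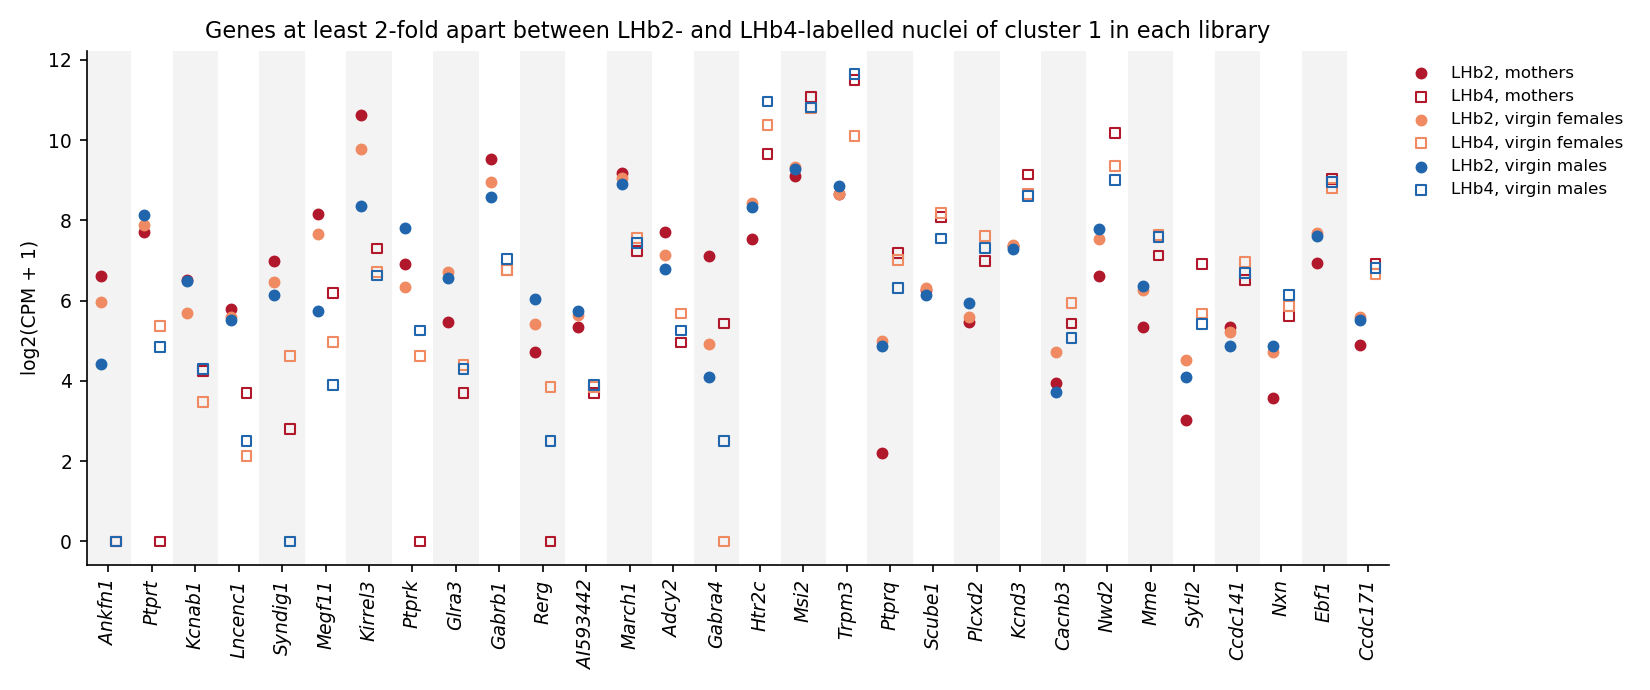
log2(CPM + 1) (y axis) of the 15 genes named as higher and the 15 named as lower (x axis), with filled circles for LHb2-labelled and open squares for LHb4-labelled nuclei of cluster 1, 1 point per library. Gabrb1 and Htr2c show no overlap between labels, while Kirrel3 ranges from 324 to 1585 CPM over the libraries of LHb2-labelled nuclei.

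Among the other lists, 2 of 20 transcription factors were higher (Foxp2 and Prox1) and 1 lower (Ebf1), with a median of 0.08. Rbfox1, a splicing factor listed among habenular subtype genes, was at 5350, 4480 and 3002 against 1328, 1043 and 1185 CPM. Nr3c1, the glucocorticoid receptor, was the only one of 11 hormone-related receptors, in 35 nuclei against 7. Of 27 axon guidance genes, Ephb2, Slit3 and Unc5c were higher and none lower, with a median of -0.01. Of 21 cadherin genes, Pcdh9 and Pcdh19 were higher and Cdh20 lower. No measured member of the heat shock (7), sex-linked (7), calcium-binding (4), acetylcholine receptor (2) or immediate early (2) lists passed, and no dopamine or adrenergic receptor had 50 UMIs. Nxph1, a secreted neurexin ligand, was the only one of 11 neuropeptide genes to be higher, Adgrl3 of 25 adhesion genes, and Adcy2 and Plcb1 of 21 kinase and G protein signalling genes. Thsd7a alone of 12 matrix genes was lower, Trpm3 of 16 cation channel genes and Kcnd3 of 28 potassium channel genes. None of 4 glutamate and GABA identity genes and 2 peptide receptor genes passed. Counts of 1 to 3 per list are small numbers beside 0.846% and 0.351% of all genes.

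The contrast between the labels depended on which nuclei were counted. With only the LHb2-labelled nuclei that had 3 or 4 markers, 4758 genes were measured, 34 of the 53 higher genes among them, and 12 of these still passed. Of the 22 lower genes, 19 were measured and 8 passed. Gabrb1 fell from a mean log2 ratio of 2.15 to 0.59, under 2-fold. Kirrel3 went to -0.21 and Megf11 to -0.90, with 17 UMIs of Megf11 in those nuclei, while Ptprt (3.84), Glra3 (1.99), Ptprk (3.08) and Lncenc1 (2.55) stayed high. Htr2c was lower still at -3.64, as was Trpm3 at -4.17. With 3 or 4 markers required in both labels, Gabrb1 was at 3.12 (127 UMIs against 10), Htr2c at -2.25 and Kirrel3 at 1.14. These selections were chosen after the data had been seen, and fewer genes and nuclei enter them.

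Cluster 4 is the other cluster in which the label LHb2 prevails, with 71 of its 75 neurons. Against it, the LHb2-labelled nuclei of cluster 1 had 118 of 6428 genes at least 2-fold higher in each library (1.84%) and 73 lower (1.14%). The clusters were made from these transcripts, so that some genes differ between them was built in. Kcns3 (chr12:11090202-11151056) was at 93.7, 80.0 and 60.9 CPM, in 27 nuclei, against no UMI in cluster 4, or at least 20.5-fold higher. Asic2, an acid-sensing sodium channel (chr11:80880169-81968457), was at 1491, 2127 and 1959 against 114, 178 and 99.2 CPM, with a mean log2 ratio of 3.84 ± 0.38. Sox6 and Man1a were among the 8 named, as were Zfpm2 (a GATA cofactor), Lypd6b (a modulator of nicotinic receptors), Spink13 and Cachd1, with mean log2 ratios from 3.30 for Spink13 to 4.94 for Zfpm2.

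Lower than in cluster 4 were Tcf4, a helix-loop-helix factor, at 43.2, 92.7 and 64.9 against 654, 717 and 854 CPM (-3.49 ± 0.49), and Plppr1, a membrane protein of growing neurites, at 50.4, 49.1 and 48.7 against 314, 356 and 369 (-2.77 ± 0.15). Adcyap1, which encodes the neuropeptide PACAP, had 7.21, 12.7 and 0 against 96.5, 162 and 143 CPM. The calcium-binding protein gene Necab1, Lzts1, Vstm2l, Lemd1 and Mgll, the lipase that degrades 2-arachidonoylglycerol, were lower too, with mean log2 ratios from -4.77 for Necab1 to -2.50 for Mgll. All 8 lower genes had no overlap between the 2 clusters in any library. Of 19 transcription factors measured, Etv1, Foxp2, Sox6 and Tcf7l2 were higher and Zic1 lower, and of 22 cadherin genes Cdh9, Cdh20 and Cdh22 were lower and none higher.

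Against the mean of clusters 0, 2, 3 and 4, 275 of 11467 genes (2.4%) were higher in the LHb2-labelled nuclei and 376 (3.28%) lower, with a median log2 ratio of 0.04. Beside Kcns3, Sox6, Man1a and Prkcq, the 10 named as higher were Dpy19l2, Elfn1, Dock1, Syt2, Dscaml1 and Myo16. Elfn1, a postsynaptic adhesion protein that shapes release onto interneurons, was at 57.6, 92.7 and 97.4 CPM and between 0.583 and 10.4 in the 4 clusters. Syt2 was at 231, 218 and 272 CPM and between 1.17 and 40.7. Myo16, an unconventional myosin, was at 198, 233 and 223 CPM against 9.68 to 23.5, with a mean log2 ratio of 3.54 ± 0.10. All 3 genes were higher in each library than the mean of any of the 4 clusters. Syt2 was not particular to the label. In LHb4-labelled nuclei it was at 95.7, 53.5 and 242.5 CPM with 0 or 1, 2 and 3 or 4 markers. In LHb2-labelled nuclei it was at 96.3, 242 and 322 CPM.

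Genes that were nearly absent from the LHb2-labelled nuclei were among the clearest. Cnksr3, a scaffold protein of ENaC regulation (chr10:7119063-7212237), had no UMI in 1074079 and a mean of 159 CPM in cluster 3, which was at least 56.5-fold higher. Mrvi1 had none either, and cluster 3 was at least 44.2-fold higher, and for Snx31 cluster 0 was at least 22.7-fold higher. Tafa4, a secreted chemokine-like protein, and Arsj had 1 UMI each. Ptpn3, a tyrosine phosphatase, was at 21.6, 30.9 and 20.3 CPM against 476, 572, 969 and 75.5 in clusters 0, 2, 3 and 4. Necab1, C6, Cpne7 and Tspear complete the 10 named as lower. Cluster 4 was low in Cnksr3 too, at 2.66 CPM, and the LHb4-labelled nuclei had 2 UMIs of it.

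By list against the 4 clusters, 2 of 6 serotonin receptor genes were higher, Htr4 at 54.0, 94.6 and 60.9 CPM and Htr2a at 32.4, 27.3 and 64.9, and both had at most 2.03 CPM in clusters 0, 2 and 3. In cluster 4 they were at 63.6 and 44.2 CPM. Of 19 GABA and glycine receptor genes, none was higher and 5 were lower (Gabbr2, Gabra2, Gabra4, Gabrd and Gabrg1). Of 24 glutamate receptor genes, none was higher and 5 were lower. Of 21 matrix and protease genes, 6 were higher (Adam12, Adamts3, Bcan, Col19a1, Reln and Sulf2) and 3 lower. Gabra4 was thus higher than in LHb4-labelled nuclei and lower than the mean of the other clusters. Of 15 hormone-related receptors, Crhr1, Gpr83 and Trhde were higher and Igf1r and Prlr lower. Prlr, the prolactin receptor, was at 7.21, 18.2 and 4.06 CPM, in 8 nuclei, and the oxytocin receptor Oxtr had 1 UMI.

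Between the libraries, each pair is 1 library against 1, which compares those libraries and not the conditions. Mothers against virgin females gave 43 of 3382 genes (1.27%) at least 2-fold higher and 69 (2.04%) lower. Virgin males against virgin females gave 27 of 3241 (0.833%) higher and 59 (1.82%) lower, and mothers against virgin males 44 of 2046 (2.15%) higher and 41 (2%) lower. The comparisons share libraries, and the number of nuclei with 3 or 4 markers differed between them, as given above. Genes are named only where the interval of the fold lay beyond 1.5-fold, except Trhde, which is given for its list. Beside each, Xist, Tsix and Trhde apart, stands its log2 ratio among the nuclei with 3 or 4 markers. UMIs are fewer there, and many intervals of the ratio reach 1.

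Ghr, the growth hormone receptor (chr15:3317760-3583492), was at 32.4 CPM in mothers and 40.6 in virgin males against 125 in virgin females. The ratio of mothers to virgin females was 0.258 (exact conditional interval 0.113 to 0.52), with a UMI in 5 of 21 against 22 of 40 nuclei, and its log2 ratio was -1.08 with 3 or 4 markers (4 against 27 UMIs) and -1.88 in all nuclei. Virgin females alone were high, and mothers and virgin males did not differ beyond counting error (ratio 0.799, 0.287 to 2.19). Of 9 measured hormone-related genes, Ghr and Trhde were lower in mothers and none was higher, beside 2.04% of all genes lower. Trhde encodes the enzyme that degrades thyrotropin-releasing hormone. It was at 158 CPM in mothers against 306 in virgin females with 3 or 4 markers, and at 25.2 against 60.2 with 0 or 1. Trhde was thus higher with 3 or 4 markers, and mothers were below virgin females in both selections, with 0 or 1 marker on 3 against 10 UMIs. Mothers also had the smallest share of nuclei with 3 or 4 markers, and the part of that share was not tested.

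Htr1f, the serotonin 1F receptor (chr16:64924729-65105854), was at 142 CPM in virgin females, 75.7 in mothers and 28.4 in virgin males. The ratio of males to virgin females was 0.2 (0.0779 to 0.432), and with 3 or 4 markers the log2 ratio was -1.82. Vgf, a secreted granin-like peptide precursor (chr5:137026392-137033351), was at 112, 89.1 and 16.2 CPM, with a ratio of males to virgin females of 0.182 (0.0477 to 0.497) and a log2 ratio of -2.38 with 3 or 4 markers. For Vgf the male library alone was low, since mothers and virgin females had a ratio of 1.25 (0.773 to 2.0). The male library had 4 UMIs of Vgf in 2 nuclei and 7 of Htr1f in 5.

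Epha3, an ephrin receptor of axon guidance, was at 115 CPM in mothers and 134 in virgin males against 36.4 in virgin females, with ratios of 3.17 (1.76 to 5.85) and 3.68 (2.05 to 6.77). Among nuclei with 3 or 4 markers the log2 ratios were 0.83 and 0.09. With 0 or 1 marker the ratios were 16.0 (3.96 to 140) and 23.3 (5.63 to 207), on 2 UMIs in virgin females. Synpo2, an actin-binding protein, was at 155 CPM in mothers against 36.4 in virgin females, a ratio of 4.26 (2.45 to 7.64), and 1.24 on the log2 scale with 3 or 4 markers (4 against 5 UMIs). Adamts6 (2.93) and Nell1 (2.72) were also higher in mothers than in virgin females, and were at 0.79 and 0.43 with 3 or 4 markers. With 0 or 1 marker the ratios were 3.29 (1.57 to 7.39) for Adamts6 and 2.60 (1.73 to 3.97) for Nell1. That of Synpo2 was 1.93 there, and its interval reached 1 (0.894 to 4.28). Zfp804b (2.37) and Rnf220 (2.21) were higher as well. With 3 or 4 markers Zfp804b was at -0.18, and Rnf220 was lower in mothers at -1.51, with 6 against 53 UMIs (ratio 0.326, 0.115 to 0.758). For Rnf220 alone among the genes higher in mothers than in virgin females did the interval in those nuclei exclude 1, and it lay on the other side. With 0 or 1 marker the ratios were 2.74 (2.1 to 3.59) for Zfp804b and 2.02 (1.49 to 2.74) for Rnf220.

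Lower in mothers than in virgin females were Ttc28 (0.205), Arhgap6 (0.258), Lgr5 (0.272), Adarb2 (0.296) and Cadps2 (0.162), which primes dense-core vesicles. With 3 or 4 markers their log2 ratios were -2.30, -1.28, -1.84, 0.68 and -0.06. In those nuclei the interval stayed below 1 for Ttc28 (0.0192 to 0.641) and reached 1 for Ghr and the other 4 genes, Lgr5 and Cadps2 having 1 UMI each in mothers. With 0 or 1 marker the interval lay below 1 for each of these genes, among them Adarb2 (0.0682 to 0.262) and Cadps2 (0.0212 to 0.337).

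In virgin males against virgin females, Nol4l (3.12), the phosphatase Ptprk (2.79), Zswim6 (2.70) and the adhesion molecule Sdk1 (2.22) were higher and Cadps2 (0.22) and the kinase Mark2 (0.253) lower, beside Xist and Tsix, its antisense RNA. Nol4l and Ptprk had log2 ratios of 2.56 and 2.10 with 3 or 4 markers, above those of all nuclei (1.64 and 1.48). With 0 or 1 marker the ratio was 1.40 (0.510 to 3.59) for Nol4l. For Ptprk it was 0.409 (0.0445 to 1.84) there, on 2 against 12 UMIs, so neither direction was settled in those nuclei. With 3 or 4 markers Zswim6 and Sdk1 had log2 ratios of 0.70 and 0.41, where the intervals of the ratio reached 1 (0.892 to 2.89 and 0.953 to 1.83). With 0 or 1 marker their ratios were 8.60 (3.36 to 26.0) and 6.22 (4.08 to 9.68). Mark2 had a log2 ratio of -1.40 with 3 or 4 markers. Cadps2 was at 0.66 there on 3 against 4 UMIs, which does not settle a direction, and had a ratio of 0.189 (0.0374 to 0.594) with 0 or 1 marker. The reads of Xist and Tsix cannot be told apart unless the counting used the strand, on which the sources used here are silent.

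Kirrel3 differed widely over the libraries, at 1585, 884 and 324 CPM. The ratio of mothers to virgin males was 4.88 (3.84 to 6.28). With 0 or 1 marker the ratio was 2.57 (1.96 to 3.42), on 290 against 64 UMIs, and with 3 or 4 markers 0.786 (0.207 to 2.61), on 5 against 9 UMIs. For Megf11 (ratio 5.4, 2.98 to 10.6) the nuclei with 0 or 1 marker had 56 against 9 UMIs, a ratio of 3.53 (1.73 to 8.12), and those with 3 or 4 had 0 against 3, too few for a ratio. The ubiquitin ligase gene Rnf220 had a ratio of 4.47 in all nuclei, 2.84 (1.78 to 4.71) with 0 or 1 marker and 0.708 (0.218 to 2.04) with 3 or 4. All 3 genes were thus higher in mothers among the nuclei with few markers, and among those with many the counts did not settle a direction. Tmem108 (3.16) had a log2 ratio of 0.03 with 3 or 4 markers, and Slc35f3 (3.13) one of 1.43. With 0 or 1 marker their ratios were 4.38 (2.33 to 9.11) and 4.73 (1.44 to 24.5).

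The 5 genes given here as lower in mothers than in virgin males kept their direction in the nuclei with 3 or 4 markers. Gabrg3, a GABA-A receptor gamma 3 subunit (chr7:56716465-57387188), was at 447 CPM in mothers and 1039 in virgin males, a ratio of 0.43 (0.344 to 0.535), with a log2 ratio of -1.21 in all nuclei and -1.32 with 3 or 4 markers. The transcription factor gene Zfp462 (0.31) was lower in mothers, at a log2 ratio of -1.64 with 3 or 4 markers. Pcdh19, an adhesion gene of the X chromosome (0.345), the chaperone Hspa8 (0.414) and Resp18, a secretory granule protein (0.416), were lower as well, at -1.41, -0.91 and -1.51 on the log2 scale with 3 or 4 markers. For each of the 5 genes the interval in those nuclei lay below 1. Of 5 measured heat shock genes Hspa8 alone passed, and of 12 GABA and glycine receptor genes Gabrg3 alone, both lower in mothers. Of all genes 41 of 2046 (2%) were lower, so 1 gene per list is a small number. With 0 or 1 marker the ratio of Hspa8 was 0.693 (0.261 to 1.89), which spans 1.

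**Figure D4:**
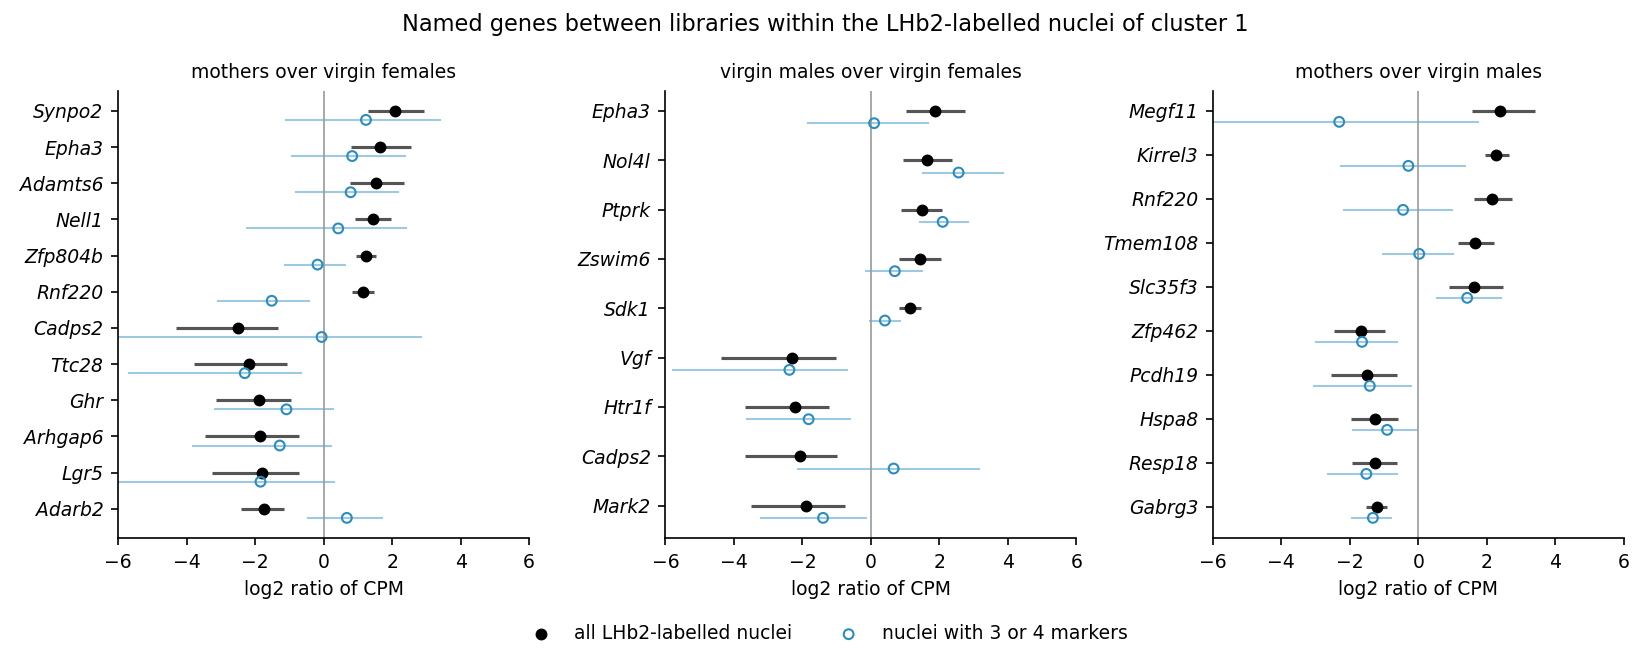
log2 ratio of CPM (x axis) between 2 libraries for the genes named in each pair (y axis), Xist and Tsix left out, with black points for all LHb2-labelled nuclei and open blue circles for nuclei with 3 or 4 of the cluster 1 markers, lines being 95% exact conditional intervals, cut off where they leave the axis. Gabrg3 and Ptprk have blue intervals clear of 0, while those of Kirrel3, Megf11 and Tmem108 span it.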

How the data were processed

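Counts of UMIs per gene and nucleus were used as the authors deposited them, with nuclear annotation (cluster, cell class, subtype labels) in a second table. Per the submitters' processing notes they came from Cell Ranger 5.0.1 on GRCm38 (mm10). Not given in the sources used here are the counting of intronic reads, the filters, the treatment of doublets and the references of the subtype labels. No doublet caller was run. The deposited percent of mitochondrial UMIs was recomputed from the counts with a largest difference of 0. All 603 annotated nuclei were joined to the count table by their total UMIs and number of genes. Coordinates are from GENCODE on GRCm38.

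UMIs were summed per library over each population and expressed per 1000000 UMIs. Genes with at least 50 UMIs over the populations compared were kept, 0.5 UMI was added to each sum, and a gene was counted where it differed at least 2-fold in each of the 3 libraries. Clusters 0, 2, 3 and 4 were weighted equally. Pairs of libraries were compared by exact conditional binomial intervals at 95%. Each group is 1 library of 3 pooled mice, so no test between groups was possible. Thinning drew 5000 UMIs per nucleus, which left out 8 LHb2-labelled and 22 LHb4-labelled nuclei. The genes named are the 15 per direction against LHb4, 8 against cluster 4 and 10 against the other clusters with the largest smallest ratio over the libraries. Between libraries they are up to 6 per direction with the largest ratio, an interval beyond 1.5-fold, a UMI in 25% of the nuclei of the higher library and no nucleus with over 25% of the UMIs. Gene models (Gm, Rik), mitochondrial and ribosomal protein genes are not named. A few genes that the rule or the lists hold are not reported here. The 22 gene lists and the nuclei themselves were chosen with earlier results of these data known. The scripts were tested on simulated data with Python 3.11.15, numpy 2.4.6, scipy 1.17.1 and pandas 2.3.3, and TMM factors came from edgeR 4.0.16 in R 4.3.3. Alternatives changed the added UMI, the filter, the scaling, the weight and depth of nuclei, the libraries and the nuclei counted.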

Additional observations from a re-analysis of the deposited data

How the results depend on the processing

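No paired analysis was possible because each group has 1 library with 1 replicate number. Of the counts of genes and shares of nuclei, 86 stayed within 1.5 times their value or their interval under other settings and 28 did not. In selections of nuclei chosen after the data had been seen (no UMI of GABA genes, 3 or 4 markers), 12 did and 8 did not. With all neurons as denominator, the share of LHb2-labelled nuclei was 21.4% in virgin females, 12.2% in virgin males and 10.4% in mothers. The 53 genes higher than in LHb4 became 162 with no filter, 17 after thinning, 33 without nuclei holding a UMI of Gad1, Gad2 or Slc32a1, 15 with 3 or 4 markers and 18 with 3 or 4 markers in both labels, and 56 to 80 when 1 library was left out. The 22 lower genes became 143 with no filter, 39 with nuclei weighted equally, 5 with 3 or 4 markers in both labels, and 30 to 39 with 1 library left out (38 without virgin females, 39 without virgin males). Against cluster 4, the 118 higher genes became 335 with no filter and 60 after thinning, and 121 to 160 with 1 library left out, and the 73 lower genes 43 with at least 100 UMIs, 417 with no filter, 41 after thinning, 127 with 3 or 4 markers, and 72 to 94 with 1 library left out. Against clusters 0, 2, 3 and 4, thinning gave 127 higher and 231 lower genes, and leaving out 1 library gave 298 to 333 and 433 to 486. The 112 genes between mothers and virgin females became 25 with at least 100 UMIs, 4393 with no filter, 180 with nuclei weighted equally, 26 after thinning and 67 with 3 or 4 markers. The 85 between mothers and virgin males became 32 with at least 100 UMIs, 6251 with no filter, 36 after thinning and 36 with 3 or 4 markers. The 86 between virgin males and virgin females became 14 with at least 100 UMIs, 5088 with no filter, 142 with nuclei weighted equally, 26 after thinning and 44 with 3 or 4 markers. Fewer genes are measured after thinning, with a stricter filter and with fewer nuclei, and more with no filter. Beyond that the cause was not tested. No named gene changed direction outside the selections by number of markers. With 3 or 4 markers the log2 ratio, with 0.5 UMI added, changed sign for Kirrel3 (-0.21) and Megf11 (-0.90) against LHb4, for Adarb2 (0.68), Zfp804b (-0.18) and Rnf220 (-1.51) between mothers and virgin females, for Cadps2 (0.66) between virgin males and virgin females and for Kirrel3 (-0.29), Megf11 (-2.31) and Rnf220 (-0.44) between mothers and virgin males. Of these ratios between libraries only that of Rnf220 between mothers and virgin females had an interval that excluded 1. The value for Megf11 between libraries rests on 0 against 3 UMIs and that for Kirrel3 on 5 against 9, so their sign is not settled. With 3 or 4 markers in both labels it did so for Megf11 (-0.10) and Sytl2 (0.034). TMM scaling moved the median log2 ratio of all genes against clusters 0, 2, 3 and 4 from 0.04 to -0.07. Depth limits genes below 2.79 CPM in all 86 nuclei, the level of 3 UMIs.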
